A study of Mus musculus with 38 samples.

Results

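The genes described here mark macrophages, the phagocytes that live in fat and in most other tissues, and they were followed in brown adipose tissue of mice on a low-fat diet, a high-fat diet, or a high-fat diet with the plant formulation KAL-1. Brown adipose tissue burns fat to make heat. The 37 genes were taken by name from the gene names of a custom 1-colour mouse array, which carries 29411 gene names in all. They fall into 6 roles: 9 genes of resident macrophages, 8 genes of lipid-associated macrophages, 6 genes of the phagocytic and lysosomal machinery, 5 Fc receptors and adaptors, 5 pattern recognition and scavenger receptors, and 4 genes of leukocytes or myeloid cells in general. The scanner software called 36 of them clearly brighter than background on 6 or more of the 38 arrays, the filter that left 21862 genes for testing. The exception was Atp6v0d2, a subunit of the vacuolar proton pump, which was well above background on 3 arrays and was not tested.

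All mice were C57BL/6J, weaned at 3 to 4 weeks of age and assigned at random to 5 groups of 30 animals. The low-fat control group (LFC, 10 arrays) received a normal diet with 10% of its calories from fat. The high-fat control group (HFC, 10 arrays) received a diet with more sucrose and with 60% of its calories from fat. The groups HF5, HF20 and HF75 (6 arrays each) received the same high-fat diet with 5, 20 or 75 µg of KAL-1, and no group received KAL-1 on the low-fat diet. LFC and HFC had 1 array each at Day 6, Day 10, Day 14 and Weeks 0, 3, 6, 9, 12, 15 and 18, and the KAL-1 groups had 1 array each at Weeks 3 to 18. Week 0 is the same day of diet as Day 14. In each group, 5 animals were killed every 3 weeks, and the labels do not say how many of them an array holds, so time points stood in for replicates, and p-values measure the spread between time points of 1 array each. Values are log2 processed signal minus the 75th percentile of the array, so that 0 is the level of that percentile. In whole tissue, fewer macrophages and less RNA of a gene in each macrophage cannot be told apart.

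Resident macrophages depend on the receptor for colony stimulating factor 1 (Csf1r) and carry the adhesion receptor F4/80 (Emr1, now Adgre1), the scavenger receptor Cd163, the mannose receptor Mrc1 and the complement proteins C1qa, C1qb and C1qc. Lipid-associated macrophages gather around stressed or dying fat cells in obese adipose tissue. They sense lipids with the receptor Trem2, which signals through the adaptor Tyrobp, and express Gpnmb, Spp1 (osteopontin), Lgals3 (galectin-3), Itgax (CD11c), the elastase Mmp12 and the protease Adam8. In brown fat, macrophages clear debris and shed mitochondria of brown adipocytes and shape the supply of noradrenaline to the tissue.

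Before the results, 2 features of the arrays need to be known. The first is scan brightness: the 75th percentile of signal was 183 intensity units on the median array, 35.1 on the dimmest and 1209 on the brightest, and 11 arrays (625.4 or more) stood above the other 27 (at most 430). The bright arrays were 4 of LFC, 2 of HFC, 0 of HF5, 4 of HF20 and 1 of HF75, and 36.6% to 78.8% of the spots of an array were well above background. At Week 9 the LFC array (1023) was scanned on another day than the other groups (35.1 to 54.0). At Week 6, HF20 and HF75 were scanned on another day than LFC, HFC and HF5. Comparisons across these arrays within a week therefore also compare scan days. The second is the HF75 array of Week 3, which went against its tissue label. Its level of Ucp1, the uncoupling protein that defines brown fat, was -3.08, while the other 37 arrays had 3.38 to 8.57. Of the 8 brown adipocyte genes on the list, Cidea (-1.78 against 5.58 to 8.77), Cox8b (-2.01 against 4.04 to 8.07), Ppargc1a and Elovl3 were below the range of the other arrays too. Prdm16 (1.67), Adrb3 (2.18) and Dio2 (-4.20) were within it. Adipoq, which all fat cells express, was at 4.16 beside a median of 3.96 on the other arrays. The counts of HF75 and its called genes are therefore also given without that array. On the HFC array of Day 10 the spots of C1qa and Fcgr3 were marked as outliers by the scanner software, so these genes have 9 HFC values. That array had 1079 such spots, and the other arrays at most 73.

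The array read these genes with 57 probes of 60 bases, and the probes of different genes shared no run longer than 13 bases (Trem2 and Spp1). The probes of the related genes Lyz1 and Lyz2 shared at most 6 bases, and those of Fcgr2b and Fcgr3 at most 7. These runs compare probe with probe. Whether a probe also matches the transcript of a related gene was not tested. These probes are shown because Ptprc had the smallest p between the diets and because Tyrobp and Lgals3 stand for the adaptor and the lipid-associated roles. The first and second belong to Ptprc and are not the probe used for its values.
Ptprc, first probe: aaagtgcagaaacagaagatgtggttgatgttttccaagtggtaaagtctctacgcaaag
Ptprc, second probe: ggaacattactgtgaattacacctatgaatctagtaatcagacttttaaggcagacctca
Tyrobp: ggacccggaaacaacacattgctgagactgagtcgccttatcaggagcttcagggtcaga
Lgals3: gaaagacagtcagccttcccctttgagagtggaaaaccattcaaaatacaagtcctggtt

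In the RefSeq gene table of build GRCm38.p6, all 37 genes were found, 36 by their symbol and Emr1 by its older name. The 3 complement genes lie side by side at chr4:136880126-136898844. PU.1, the master transcription factor of macrophages, binds purine-rich sites around GAGGAA. Since the genes went up and down together across arrays, as described in the next paragraph, their promoters were searched for these letters on both strands, in the window of 300 bases around each start that the RefSeq table gives. Of the 30 genes with a promoter in the RefSeq table, 20 (66.7%) held GAGGAA, and 31.3% of all 27025 genes in the table did. The longer GAGGAAGT, which contains it, was in 4 of the 30 (13.3%) and in 3.7% of all genes. A match of letters is a description and not a binding site. The last 150 bases before the start are shown for 4 genes that all held a match there, with matches on either strand in capitals. They are examples and do not stand for the list. Trem2 passed no threshold in the comparisons below. Ptprc, Clec4d, Lyz2, Mrc1, Lgals3, Mmp12 and Fcgr1, which passed one, are not shown, nor is Mpeg1, called with brightness class in the model. Lyz2, Lgals3 and Mpeg1 had no match in their windows.
Itgam, chr7:128062490-128062639, plus strand: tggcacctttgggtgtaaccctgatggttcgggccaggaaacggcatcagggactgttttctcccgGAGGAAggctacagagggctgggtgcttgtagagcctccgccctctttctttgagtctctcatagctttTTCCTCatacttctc
Clec7a, chr6:129472786-129472935, minus strand: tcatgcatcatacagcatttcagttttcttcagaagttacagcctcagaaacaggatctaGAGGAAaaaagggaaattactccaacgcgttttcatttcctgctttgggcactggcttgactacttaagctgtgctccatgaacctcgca
Trem2, chr17:48346251-48346400, plus strand: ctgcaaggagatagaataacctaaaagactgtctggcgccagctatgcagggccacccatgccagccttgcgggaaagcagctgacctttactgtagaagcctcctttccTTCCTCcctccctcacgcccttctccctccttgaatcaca
Spp1, chr5:104434961-104435110, plus strand: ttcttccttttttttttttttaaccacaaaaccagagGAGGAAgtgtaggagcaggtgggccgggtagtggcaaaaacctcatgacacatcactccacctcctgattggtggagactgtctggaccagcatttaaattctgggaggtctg

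The macrophage genes moved up and down together from array to array. Over the 38 arrays, the correlation of a gene with the mean of the other macrophage genes had a median of 0.636, and for the other tested genes the correlation with the mean of the macrophage genes had a median of 0.024. Only 0.458% of those other genes reached the median of the macrophage genes. The correlation was highest for Cd68 (0.863), a lysosomal membrane protein, and high for Ctss (0.805), a lysosomal protease, and Ms4a7 (0.802). It was lowest for Cd163 (0.246) and Cybb (0.421), the NADPH oxidase subunit that makes superoxide. These correlations are descriptions, since arrays share diet, time point and brightness. The correlation of the mean of the macrophage genes with log2 brightness was -0.048 over 38 arrays and 0.329 over the 11 bright ones. It covers the mean of all roles and does not show how single genes or roles followed brightness. Several results below changed when brightness was taken into account.

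**Figure D1:**
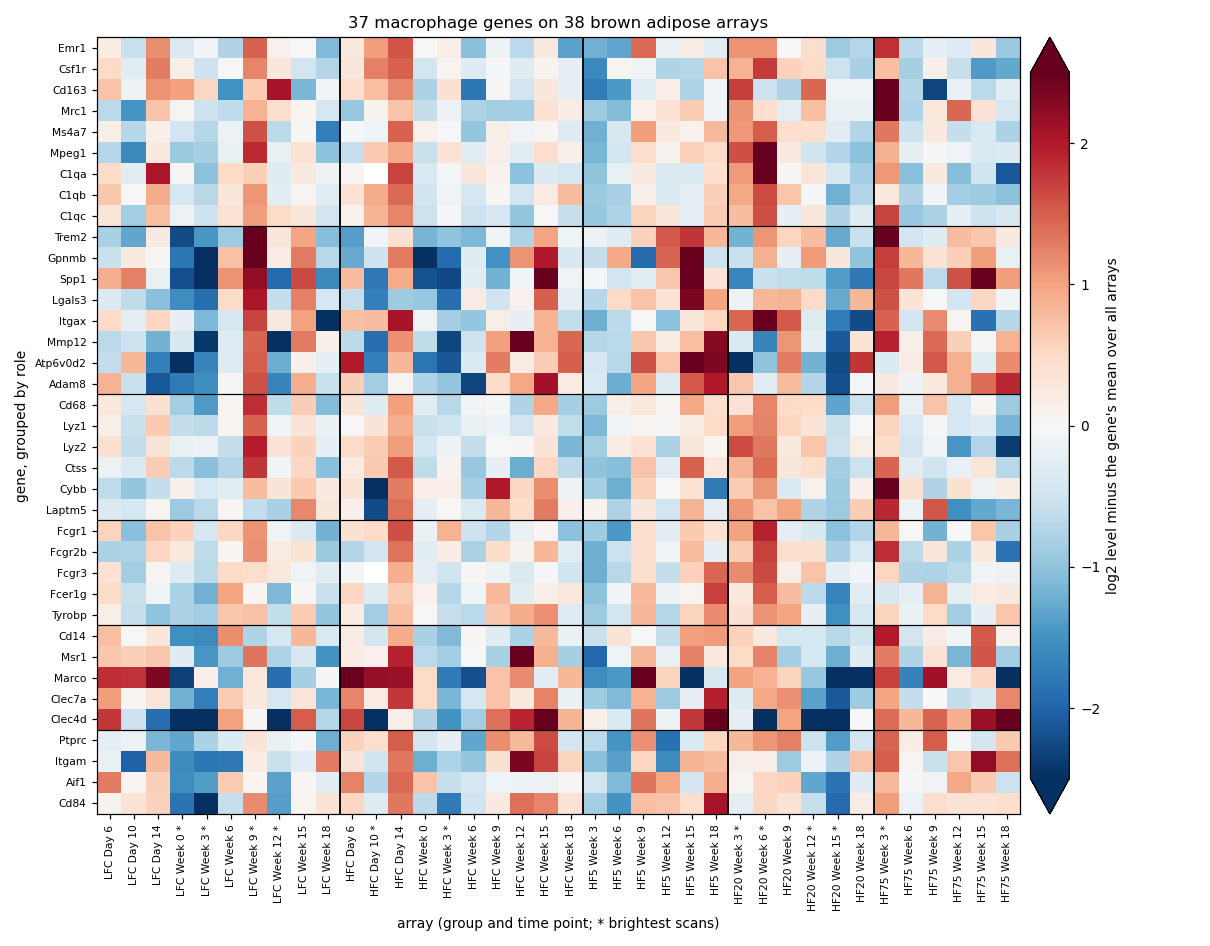
Each row is 1 of the 37 genes, ordered by role, and each column 1 of the 38 arrays, ordered by group and time point, with an asterisk on the 11 brightest scans. Colour gives the log2 level minus the mean of the gene over all arrays, cut at 2.5 in each direction, and white cells of C1qa and Fcgr3 at HFC Day 10 have no value. HFC Day 14 (36 of 37 genes above their mean), LFC Week 9 and HF75 Week 3 (35 each) are mostly red, and HF20 Week 15 (1 of 37), LFC Week 3 and HF5 Week 3 (2 each) are mostly blue.

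Resident and lipid-associated genes differed in how much they varied. The resident genes had a median SD over arrays of 0.82 (0.71 to 1.15) and the lipid-associated genes one of 1.22 (1.04 to 1.62), beside 0.91 over all genes tested. The widest spreads among the lipid-associated genes were those of Spp1 (1.62) and Gpnmb (1.47), a glycoprotein of lysosome-rich phagocytes. Spp1, Gpnmb, Itgax and Mmp12 were well above background on 35, 27, 25 and 7 of 38 arrays. Each resident gene was so on 37 or 38. Trem2, Lgals3 and Adam8, well above background on all 38 arrays, had SDs of 1.182, 1.043 and 1.199. The part of dim spots in the difference between these roles was not tested. The means of the 2 roles correlated at 0.373 over 38 arrays, at 0.323 over the 27 dim arrays and at 0.851 over the 11 bright ones. Resident genes followed the phagolysosomal genes (0.769) and the Fc receptors and adaptors (0.771) more closely, and the closest pair of roles was pattern recognition with pan-leukocyte genes (0.879). The mean of the lipid-associated genes ran from -3.65 to 0.52 in LFC, with the lowest value at Week 3 and the highest at Week 9. In HFC it ran from -3.22 at Week 3 to 0.06 at Week 15. The mean of the resident genes ran from -0.47 to 1.35 in LFC and from -0.46 to 1.49 in HFC, highest at Week 9 and at Day 14. The ranges of the diets overlapped in both roles.

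**Figure D2:**
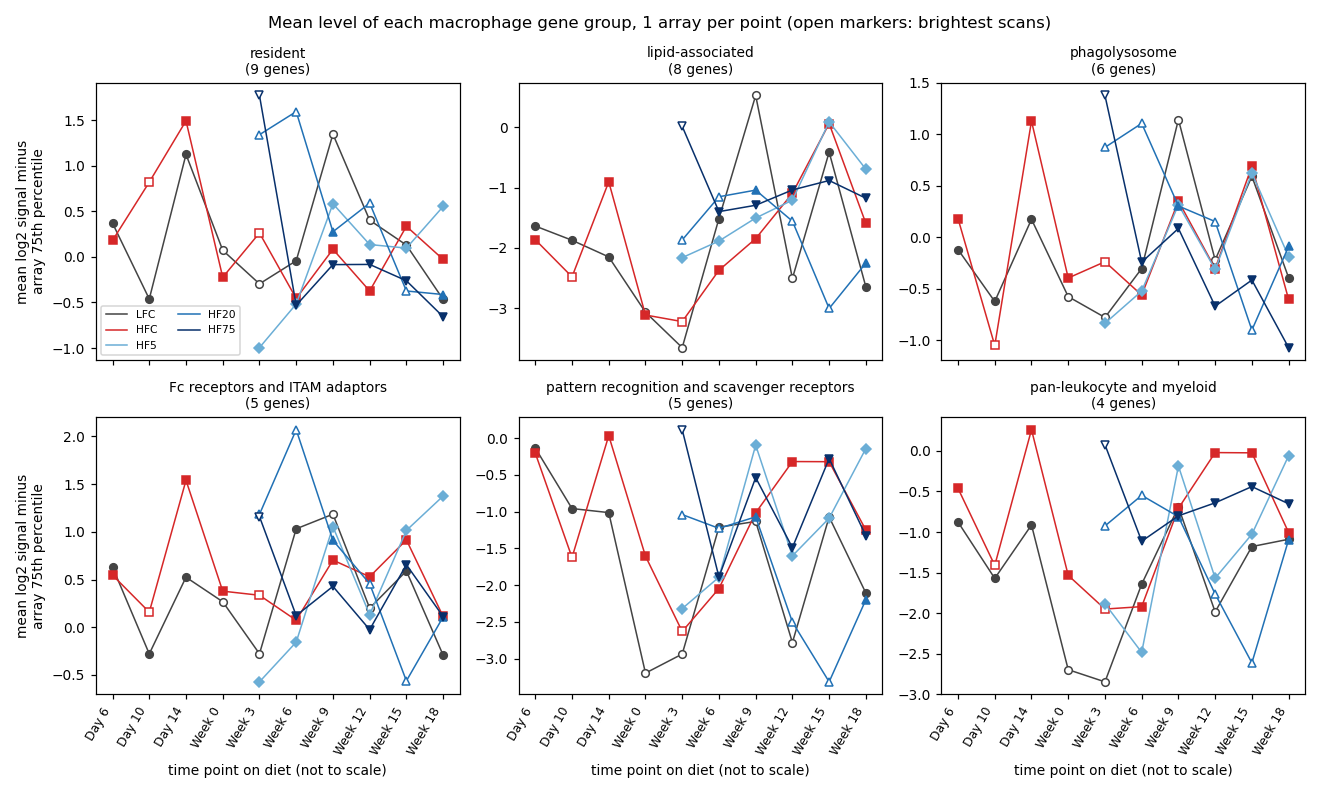
The 6 panels show the mean log2 level of the genes of each role against time point for the 5 groups, with 1 array per point, no error bars, time points spaced evenly and open markers for the 11 brightest scans. LFC Week 9 (resident 1.35) and HFC Day 14 (resident 1.49) are the highest arrays of their group in 5 of the 6 panels each, and HF75 Week 3 is the highest HF75 array in all 6.

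The comparison of HFC with LFC asked whether the high-fat diet changed macrophage genes, over the 10 time points with the time point as a block. No macrophage gene passed an adjusted p of 0.05 in limma, and nor did any of the genes tested (0%). The smallest adjusted p of a macrophage gene was 0.643. At an unadjusted p of 0.05, 3 of 36 genes were called, all higher in HFC: Ptprc, Itgam and Clec7a. That is 8.33% of the list, and 6.98% of all genes tested were called. Leaving out 1 time point gave 2 to 6 genes at that level, with 6 without Day 10 or Week 6 and 5 without Week 9, and normexp background correction or no block gave 1. Of the 36 genes, 24 were higher and 12 lower in HFC, with a median difference of 0.07 on the log2 scale, and 55.3% of all genes were higher with a median of 0.06.

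**Figure D3:**
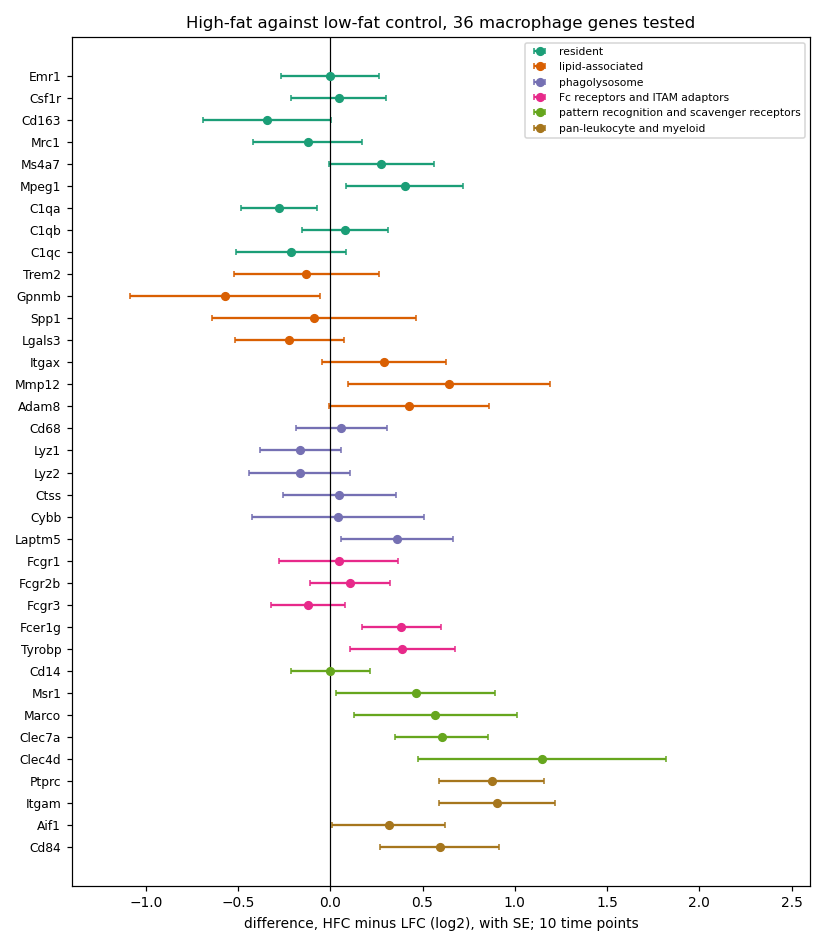
Points give the fitted log2 difference of HFC minus LFC for the 36 genes tested, coloured by role, with bars of 1 SE over 10 time points. Resident, lipid-associated and phagolysosomal genes lie on both sides of 0, and the 4 pan-leukocyte genes lie above 0, from 0.32 to 0.90.

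The pan-leukocyte and myeloid genes were higher in HFC in 4 of 4 cases, with a median difference of 0.73. Ptprc (CD45), the phosphatase on all leukocytes, ran from -0.72 to 0.92 with a median of 0.31 in LFC. In HFC it ran from -0.70 to 2.21 with a median of 1.09. The HFC array was the higher at 9 of 10 time points, the exception being Week 6, although the ranges of the groups overlapped. The difference was 0.87 (SE 0.28, unadjusted p = 0.0099, adjusted p = 0.643 in limma). The probes of Ptprc printed above also read higher in HFC, by 1.47 (SE 0.44) for the first and 1.38 (SE 0.27) for the second, which was well above background on 12 arrays only. Itgam (CD11b), the integrin of myeloid cells, ran from -5.91 to -2.60 with a median of -4.30 in LFC, and from -5.12 to -1.53 with a median of -3.55 in HFC. It was higher in HFC at 9 of 10 time points, by 0.90 (SE 0.31, unadjusted p = 0.0141, adjusted p = 0.643 in limma). Its signal was low, well above background on 21 of 38 arrays, and its other probe differed by 0.08 (SE 0.35). Cd84, an adhesion receptor of leukocytes, was higher at 8 of 10 time points (0.59, SE 0.32), and Aif1, a calcium-binding protein of macrophages, at 5 (0.32, SE 0.30). Markers of other cells were higher in HFC too, and not only those of leukocytes. All 12 lymphocyte genes were higher, with a median of 1.12 and 8 of them at an unadjusted p of 0.05. All 11 neutrophil genes tested were higher with a median of 0.91. The 6 erythroid genes (median 0.90) and the 4 endothelial genes tested (median 0.49) were also all higher. Skeletal muscle (4 of 9 higher) and white adipocyte genes (2 of 6 higher) were split. With the brightness class of the scan in the model, 11 of 12 lymphocyte genes (median 0.86) but only 7 of 11 neutrophil genes (median 0.15) were higher. The mean over the lymphocyte list ran from -5.43 to -3.01 in LFC and from -4.62 to -1.79 in HFC. The part of these other cells in the differences of Ptprc and Itgam was not tested.

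Among the pattern recognition and scavenger receptors, 4 of 5 were higher in HFC, with a median of 0.57. Clec7a (dectin-1), the receptor for fungal glucans, ran from -2.16 to 0.60 with a median of -0.28 in LFC, and from -1.58 to 1.33 with a median of -0.07 in HFC. It was higher in HFC at 9 of 10 time points, again all but Week 6, by 0.60 (SE 0.25, unadjusted p = 0.0356, adjusted p = 0.643 in limma). With the brightness class in the limma model the difference was 0.52 and missed the unadjusted threshold (p = 0.062). Clec4d, a C-type lectin receptor of myeloid cells, ran from -5.20 to 0.39 with a median of -1.99 in LFC and from -4.75 to 1.12 with a median of -0.88 in HFC. Its difference of 1.15 had an SE of 0.67, and it was higher at 7 of 10 time points. It was 0.66 without Week 12 and 0.43 with log2 brightness in the model. The scavenger receptors Marco and Msr1 had differences of 0.57 (SE 0.44) and 0.46 (SE 0.43). Cd14, the co-receptor for bacterial lipopolysaccharide, had a difference of -0.00 (SE 0.21).

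**Figure D4:**
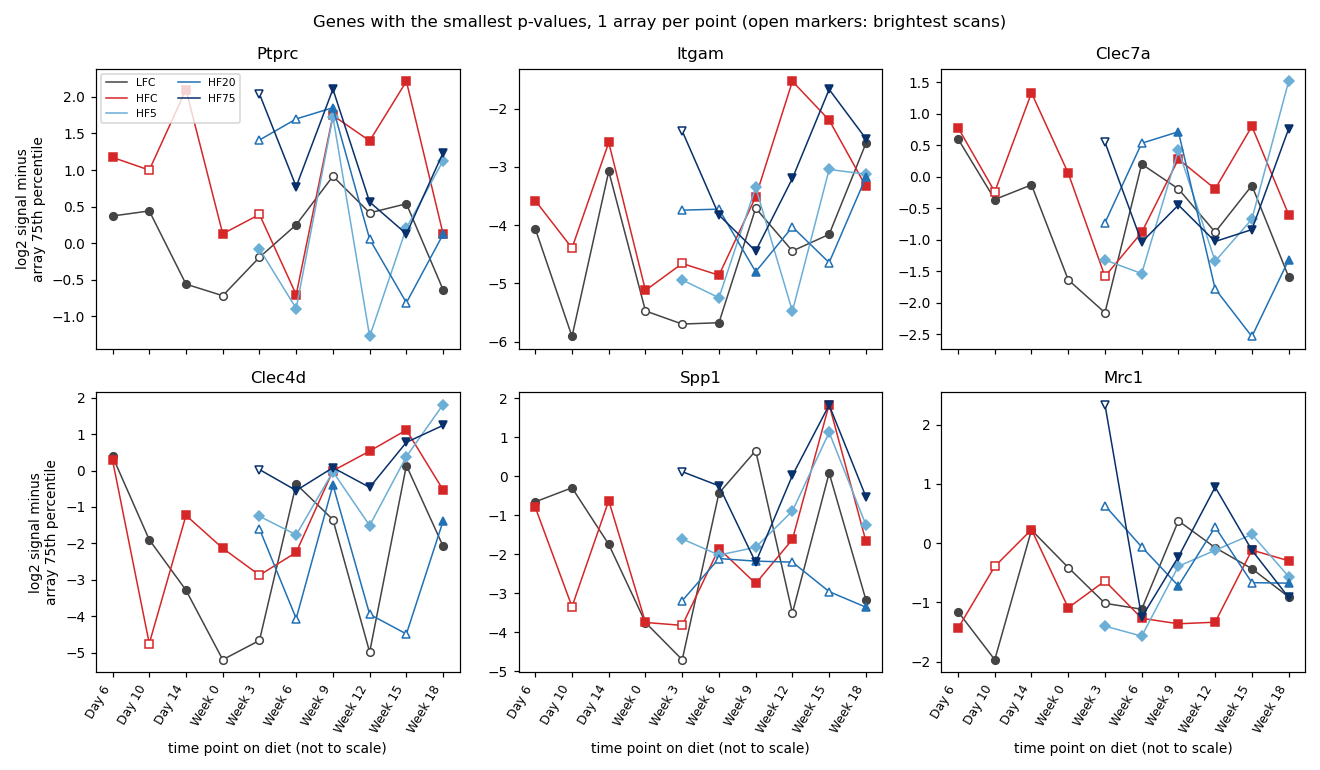
The 6 panels show log2 levels of Ptprc, Itgam, Clec7a, Clec4d, Spp1 and Mrc1 against time point, with 1 array per point, time points spaced evenly and open markers for the 11 brightest scans. HFC lies above LFC at 9 of 10 time points for Ptprc, Itgam and Clec7a, and the 6 HF20 arrays lie below the HF75 arrays of the same week for Clec4d.

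Fc receptors bind antibodies, and some of them signal through adaptors with tyrosine motifs. Fcer1g and Tyrobp, both adaptors of this kind, had differences of 0.39 (SE 0.22, higher at 9 of 10 time points) and 0.39 (SE 0.28, higher at 7 of 10). Fcgr1, Fcgr2b and Fcgr3, the receptors, had differences of 0.05, 0.10 and -0.12, each smaller than its SE of 0.32, 0.22 and 0.20. The probe of Fcgr3 used here was higher in HFC at 4 of 9 time points, and its other probe at 5 of 10. None of the 5 genes passed an unadjusted p of 0.05. Tyrobp ran from 0.57 to 2.31 with a median of 0.97 in LFC and from 0.71 to 2.72 with a median of 1.67 in HFC, so that the groups overlapped.

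The phagolysosomal genes had a median difference of 0.05, with 4 of 6 higher. Laptm5, a lysosomal membrane protein of blood cells, had the largest difference (0.36, SE 0.30). The lysozymes Lyz1 and Lyz2, enzymes against bacterial cell walls, had -0.16 (SE 0.22) and -0.17 (SE 0.28), and Cd68, Ctss and Cybb lay between 0.04 and 0.06. On the HFC array of Day 10, Cybb was at -7.07 while the other HFC arrays had -2.91 or more. Without that time point the mean difference of Cybb was 0.49.

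The resident genes were split between the diets, 5 higher and 4 lower, with a median of 0.00. Mpeg1, a pore-forming protein that macrophages use against bacteria, had the largest difference (0.40, SE 0.32), Ms4a7 had 0.28 (SE 0.28) and Cd163 the lowest (-0.34, SE 0.34). Emr1 had a difference of 0.00 (SE 0.27): it ran from -0.28 to 2.28 in LFC and from -0.52 to 2.39 in HFC. Csf1r had 0.04 (SE 0.26), Mrc1 -0.12 (SE 0.30), and C1qa, C1qb and C1qc -0.28, 0.08 and -0.21.

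The lipid-associated genes, of which 3 were higher and 4 lower, had a median of -0.09. Trem2 ran from -2.90 to 2.58 with a median of -1.52 in LFC and from -2.03 to 0.32 with a median of -1.103 in HFC, a difference of -0.13 (SE 0.39). Its highest level of all 38 arrays was that of LFC Week 9. The other probe of Trem2 was higher in HFC at 7 of 10 time points, and the probe used at 5. Spp1 had a difference of -0.09 (SE 0.55), Lgals3 -0.22 (SE 0.30), Gpnmb -0.57 (SE 0.52), Itgax 0.29 (SE 0.34), Mmp12 0.64 (SE 0.55) and Adam8 0.43 (SE 0.43). Mmp12 was well above background on 7 of 38 arrays, so its values are mostly those of dim spots, and its difference was 0.13 without Week 12. The differences of Trem2 and Lgals3 turned to 0.22 and 0.03 without Week 9, when the LFC and HFC arrays were scanned on different days.

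The scan brightness of the paired arrays differed at 4 of 10 time points. At the 6 time points where the LFC and HFC arrays were of the same brightness class, 29 of 36 genes were higher in HFC, with a median of 0.29 beside -0.02 over all genes. All 7 lipid-associated genes were then higher, with a median of 0.35, and none of them reached an unadjusted p of 0.05. With the brightness class as a term in the model, 27 of 36 genes were higher with a median of 0.21 (all genes 0.00). At an unadjusted p of 0.05 that model called Ptprc, Itgam and Mpeg1 (p = 0.0189 in limma), and no longer Clec7a. That is 8.33% of the list beside 6.66% of all genes. Over Weeks 3 to 18 alone, 18 genes were higher and 18 lower in HFC, but once brightness class was a model term 27 were higher and 9 lower (median 0.20), and likewise at the weeks of one class (median 0.21). None of them was called at an adjusted or an unadjusted p of 0.05 over those weeks, where 0.00915% and 14.4% of all genes were called.

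The trend over days asked which genes changed with time on either diet, over the 20 LFC and HFC arrays with the diet in the model. It had no term for the time point, so the LFC and HFC arrays of a time point were treated as independent. No scan day held arrays of different time points, and the mice aged over the course. Time on diet, age and scan day can therefore not be told apart in this trend. No macrophage gene passed an adjusted p of 0.05, and 1.63% of all genes did. At an unadjusted p of 0.05, 4 of 36 genes (11.1%) were called, beside 21.3% of all genes. Lgals3 had a slope of 0.0128 per day on the log2 scale (SE 0.0044, unadjusted p = 0.0083, adjusted p = 0.103 in limma). Mmp12 had 0.0145 and Itgam 0.0121, while Fcgr1, the high-affinity antibody receptor, had -0.0081. Of the 10 arrays of each diet, Mmp12 was well above background on 2 in LFC and 3 in HFC, and Itgam on 7 in each. Their slopes therefore rest in part on dim spots. Lgals3 ran from -0.31 to 3.62 in LFC and from -0.32 to 3.09 in HFC, with the lowest array of both diets at Week 3 and the highest at Weeks 9 and 15. Slopes were above 0 for 6 of 7 lipid-associated genes (median 0.0097 per day) and for 2 of 9 resident genes (median -0.0038), beside 53.8% of all genes. The difference between these 2 roles was not tested. The product of diet and day asked whether the diets diverged with time: 0 macrophage genes were called at an adjusted p (0% of all genes) and 0 at an unadjusted p of 0.05 (15.3% of all genes). The smallest unadjusted p was that of Lyz2 (0.0698 in limma, with a product of -0.0104 per day).

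The KAL-1 groups were each set against HFC over Weeks 3 to 18, so these comparisons share the 6 HFC arrays and are not independent. In HF5, 0 macrophage genes were called at an adjusted p in limma (0% of all genes) or at an unadjusted p of 0.05 (5.45% of all genes). Of the 36 genes, 21 were higher and 15 lower, with a median of 0.12 (all genes 0.01). Trem2 ran from -0.98 to 1.13 with a median of 0.05 in HF5, and from -1.78 to 0.32 with a median of -1.103 in HFC at the same weeks. It was higher at 6 of 6 weeks, by 1.06 (SE 0.66). Lgals3 (0.83, SE 0.56) and Cd14 (0.46, SE 0.44) were also higher at 6 of 6, and Cybb was lower at 6 of 6, with a difference of -0.96 (SE 0.55, unadjusted p = 0.0934 in limma). Ptprc (-0.73, SE 0.50) and Itgam (-0.85, SE 0.53) were lower than in HFC at 5 and at 4 of 6 weeks. Week 12 carried much of this (-2.67 and -3.95), and without it the mean differences were -0.34 and -0.23. All 12 lymphocyte genes were lower in HF5, with a median of -0.66. The mean level over that list ran from -4.35 to -2.63 in HF5 and from -4.62 to -1.79 in HFC over all its time points, and their part in the difference of Ptprc was not tested.

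In HF20, 0 macrophage genes were called at an adjusted p (0% of all genes), and 1 gene, Clec4d, was called at an unadjusted p of 0.05, where 33.2% of all genes were. Clec4d ran from -4.49 to -0.39 with a median of -2.78 in HF20 and from -2.87 to 1.12 with a median of -0.27 in HFC. It was lower in HF20 at 5 of 6 weeks, with a difference of -1.98 (SE 0.79, unadjusted p = 0.0192, adjusted p = 0.12 in limma). The differences were largest at Week 15 (-5.60), Week 12 (-4.48) and Week 6 (-1.82), where HF20 had a bright array and HFC a dim one. At the 3 weeks where both arrays were of the same class the difference was 0.01. The 9 resident genes were all higher in HF20, with a median of 0.60 beside -0.20 for all genes, and none was called. The resident mean of HF20 was above that of HFC at Weeks 3, 6, 9 and 12 (by 1.08, 2.05, 0.19 and 0.96) and below it at Weeks 15 and 18. Fcgr3 (0.82, SE 0.40), Lyz2 (0.84, SE 0.43) and Lyz1 (0.70, SE 0.35) had the largest positive differences. With the brightness class in the model, 16 genes were higher and 20 lower, and the resident median was 0.02. At the 3 weeks of one class, 31 of 36 genes were higher (56.8% of all genes) and all 9 resident genes were, with a median of 0.27. Without regard to brightness, markers of other cells differed in HF20 too. All 9 skeletal muscle genes (median 1.86) and all 6 white adipocyte genes (median 1.69) were higher. Of the muscle genes 0 were called at an unadjusted p of 0.05, and the muscle mean was higher at 3 of 6 weeks. The 6 erythroid genes (median -1.67) and the 4 endothelial genes tested (median -1.48) were all lower. So were all 11 neutrophil genes (median -1.15) and 10 of 12 lymphocyte genes (median -0.73). The neutrophil direction turned with brightness: 8 of 11 genes were higher with the class in the model (median 0.45) and 10 of 11 at the weeks of one class (median 1.49). For the lymphocyte genes the medians were then -0.40 and -0.08. The mean over the muscle list ran from -5.41 to 4.62 in HF20 and that over the neutrophil list from -4.39 to 1.21. Their part in the macrophage values was not tested.

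In HF75, 0 macrophage genes were called at an adjusted p (0% of all genes), and 2 genes, Mrc1 and Spp1, at an unadjusted p of 0.05 (9.14% of all genes), both higher. Mrc1, the mannose receptor, ran from -1.25 to 2.34 with a median of -0.17 in HF75 and from -1.36 to -0.12 with a median of -0.95 in HFC. It was higher at 4 of 6 weeks, by 0.96 (SE 0.44, unadjusted p = 0.0392, adjusted p = 0.539 in limma). Spp1, the secreted phosphoprotein osteopontin, ran from -2.21 to 1.83 with a median of -0.11 in HF75, and from -3.82 to 1.84 with a median of -1.75 in HFC. It was higher at 5 of 6 weeks, by 1.48 (SE 0.71, unadjusted p = 0.0491, adjusted p = 0.544 in limma). All 7 lipid-associated genes were higher in HF75, with a median of 0.68, beside -0.03 for all genes. The HF75 and HFC arrays were of the same brightness class at all 6 weeks. Of the 8 brown adipocyte genes, 7 were lower in HF75, with a median of -1.32, or -0.55 without the Week 3 array.

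The HF75 array of Week 3 carried much of this. On it, 25 of 37 macrophage genes were above every other HF75 array, and 8 had their highest level of all 38 arrays. Without it, 14 of 36 genes were higher in HF75 with a median of -0.15, beside 49.9% of all genes higher. At an unadjusted p of 0.05, 0 were called, beside 6.04% of all genes. Lipid-associated genes were then higher in 4 of 7 cases (median 0.31) and resident genes in 2 of 9 (median -0.33). Mrc1 went to 0.51 (SE 0.38) and Spp1 to 1.11 (SE 0.73). The brown fat genes named above were far lower on that array, so that its macrophage levels and its tissue content cannot be told apart.

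**Figure D5:**
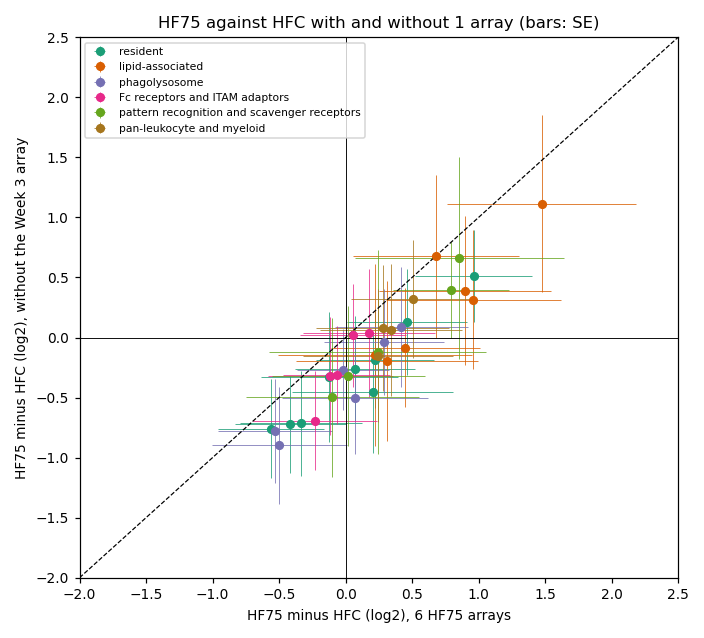
Each point is 1 of the 36 genes, coloured by role, with the log2 difference of HF75 minus HFC from all 6 HF75 arrays on the horizontal axis and without the Week 3 array on the vertical axis, bars of 1 SE, and a dashed line of equal values. All 36 points lie below the line, and 14 of 36 stay above 0 on the vertical axis.

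A joint test of differences among HF5, HF20 and HF75 called 2 of 36 macrophage genes at an adjusted p of 0.05, Clec4d (adjusted p = 0.0415 in limma) and Spp1 (adjusted p = 0.0494), that is 5.56% of the list beside 13.4% of all genes. At an unadjusted p of 0.05 the third was Lyz2, and 37.4% of all genes were called. The pairs of doses showed where these lay: HF75 against HF20 called Clec4d, Spp1 and Lyz2, and 25.6% of all genes, while HF20 against HF5 and HF75 against HF5 called 0 macrophage genes and 0% of all genes. Clec4d was higher in HF75 than in HF20 at 6 of 6 weeks, by 2.83 (SE 0.79, adjusted p = 0.0193 in limma). Spp1 was higher at 5 of 6, by 2.496 (SE 0.71, adjusted p = 0.0205 in limma), and Lyz2 lower at 6 of 6, with a difference of -1.37 (SE 0.43, adjusted p = 0.0266 in limma). At the 3 weeks where the HF75 and HF20 arrays were of the same brightness class, the mean differences were 1.58, 2.04 and -1.36, and at the other 3 weeks 4.09, 2.96 and -1.39. Once brightness class was added as a term, the joint test called 0 macrophage genes (0 of all genes), with adjusted p of 0.51 for Clec4d and 0.372 for Spp1. Without the HF75 array of Week 3 it also called 0 (0 of all genes), with adjusted p of 0.0723 and 0.0916. HF75 against HF20 then called Lyz2 alone (-1.62, SE 0.43, adjusted p = 0.0441 in limma) and 8.27% of all genes, with adjusted p of 0.0511 for Clec4d and 0.0582 for Spp1.

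The list was set beside 27 partner genes of macrophages, of which 25 were tested, among them growth factors, transcription factors, signalling proteins and cytokines. In HFC against LFC, 17 of the 25 were higher, with a median of 0.31. At an unadjusted p of 0.05, 3 were called, beside 6.98% of all genes. Vsig4, a complement receptor of resident macrophages, was higher by 1.38 (SE 0.57), Hcst, an adaptor like Tyrobp, by 0.86 (SE 0.33), and Syk, the kinase that Tyrobp and Fcer1g recruit, by 0.70 (SE 0.24). All 3 were higher at 7 of 10 time points, and their adjusted p in limma was 0.643. Partners of the KAL-1 comparisons are named after their values were seen. In HF20, 4 partners were lower at an unadjusted p of 0.05, where 33.2% of all genes were called: the cytokines Il1b (-3.28, SE 1.101) and Tnf (-2.33, SE 1.13), the nitric oxide synthase Nos2 (-1.87, SE 0.66) and Vsig4 (-1.74, SE 0.79). With the brightness class in the model 0 of the 25 were called, beside 3.11% of all genes. At the 3 weeks of one class 19 of 25 were higher (56.8% of all genes). The 1 call there was of a higher gene, beside 0.599% of all genes called. In HF75, 3 were higher at that level, beside 9.14% of all genes called: the chitinase-like protein Chi3l3 (1.74, SE 0.74), the fatty acid binding protein Fabp5 (0.95, SE 0.44) and the fatty acid transporter Cd36 (0.77, SE 0.34). Without the HF75 array of Week 3, 1 of the 25 was called, beside 6.04% of all genes, and the median of the partners went from 0.49 to 0.17. None of these passed the adjusted threshold against HFC, while Fabp5 (adjusted p = 0.0368), Il1b (0.0392) and Cd9 (0.0400), a membrane protein of lipid-associated macrophages, passed it in the joint test of the doses in limma, as did 13.4% of all genes. That test called 0 partners, and 0 of all genes, once brightness class was a model term. It also called 0 of both when the Week 3 array of HF75 was left out.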

How the data were processed

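Total RNA of brown adipose tissue was labelled with Cy3 and hybridised to 1-colour arrays (38 arrays on 32 slides, scanned on 12 days). Per the file headers, the authors used Feature Extraction 10.5.1.1, whose deposited intensity values are corrected for background but not scaled between arrays. A deposited table of log2 changes against LFC holds the authors' own comparisons and was not used. No sample column was left unmapped (0).

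The log2 processed signal minus the array 75th percentile was used, with outlier spots left out, spots of a probe averaged, and the probe with the highest mean kept per gene name. Groups came from the labels. Moderated two-sided tests came from limma 3.58.1 in R 4.3.3, and p-values were adjusted by Benjamini-Hochberg over the 21862 genes well above background on at least 6 arrays. Time point was blocked for HFC against LFC and for the product of diet and day (20 arrays) and for the doses (30 arrays of Weeks 3 to 18). The trend was fitted on the 20 diet arrays with a diet term. Weeks were set to 14 days plus 7 days each. The fits were tested on simulated data. The number of arrays and the dimness of a probe limit the precision. The genes, role lists and partner lists were chosen with earlier results of these data known. Values by group are given for the 3 genes with the smallest p in each comparison, the 2 with the smallest p between the diets in each role, and those past the adjusted threshold. Sequences are from the scanner files and RefSeq.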

Additional observations from a re-analysis of the deposited data

Results flagged for a closer look

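In 140 sets of a gene or role mean within a group, 13 had a highest or lowest array far from the others by Dixon's test, and chance gives about 1 in 20. Among them, 5 were high on the HF75 array of Week 3, the one with little Ucp1: C1qc (3.18, the next HF75 array 1.27), Cybb (1.15, next -1.69), Mpeg1 (2.51, next 1.66), the mean of the resident genes (1.77, next -0.08) and that of the lipid-associated genes (0.013, next -0.88).

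At Day 14, C1qa was high in LFC (2.66, next 1.22) and in HFC (2.32, next 0.92), and Fcgr3 was high in HFC (1.54, next 0.67). On the HFC array of Day 10, Cybb (-7.07, next -2.91) and Laptm5 (-3.11, next -1.24) were low. Lyz2 was high on the LFC array of Week 9 (0.44, next -0.94), Lyz1 low on the HF5 array of Week 3 (1.52, next 2.58) and Spp1 high on the HF5 array of Week 15 (1.13, next -0.89).

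The 3 KAL-1 groups differed in the joint limma test for Clec4d (adjusted p = 0.0415) and Spp1 (adjusted p = 0.0494), beside 13.4% of all genes. With brightness class in the limma model neither passed (adjusted p of 0.51 and 0.372). Without the HF75 array of Week 3 the test called 0 macrophage genes and 0 of all genes.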

How the results depend on the processing

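Over 56 results and 62 settings, 1758 of the alternative values of single genes and medians kept their direction and their side of the threshold, 56 lost and 6 gained the threshold, and 8 changed sign. Of the alternative counts, 611 stayed within 1.5 times the reported one, 72 were lower and 63 higher. The count of macrophage genes that differed among doses was 2 as reported. It was 1 with quantile normalization, with scan day as a random block and with genes well above background on every array. In these settings 2350, 2910 and 3633 of all genes were called. It was 0 with normexp background correction, with no filter on dim genes, with the brightness class and with log2 brightness in the model. These settings called 0 of all genes too. Without the time point as a replicate block it was also 0, while 1237 of all genes were called. Same-time-point arrays correlated at -0.255 to 0.674 between LFC and HFC. Leaving out 1 array or time point gave 0 to 3 for that count, 0 to 1 for HF20 against HFC and 0 to 1 for the trend over days, and the cause was not tested. The first was 0 without Week 3, 6, 12, 15 or 18, or without any 1 of the arrays of HF20 (Weeks 3, 6, 12 and 15), HF5 (Weeks 3, 12 and 15), HF75 (Weeks 3, 6, 12, 15 and 18) or HFC (Week 9). Of all genes, 0 were called without Week 3, 6, 12 or 15, those HF20 arrays, or the HF75 array of Week 3 or 12. Without Week 18, 5371 of all genes were called, and without the other arrays named here 983 to 2427. The second was 1 without Week 3 or the HF20 array of Week 9, with 3603 and 4180 of all genes called. The third was 1 without the LFC array of Week 12, with 1428 of all genes called. Clec4d passed in 25 of 48 and Spp1 in 14 of 47 settings.

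Signs changed for Mmp12 between the diets with quantile normalization (-0.13), for Gpnmb between the diets with normexp (0.22), with the mean of all probes (0.021) and at time points of one brightness class (0.21), for Lyz1 between the diets with log2 brightness (0.12), for Lyz2 among doses with normexp (0.24), for the product of diet and day of Emr1 with the mean of all probes (0.0021) and for Clec4d in HF20 at time points of one brightness class (0.010). Role counts by brightness class and without the HF75 array of Week 3, HF75 against HF20 without that array, means without 1 time point and the values with outlier spots kept were chosen after seeing the data. Dim signal limits Mmp12, Itgam and Gpnmb most.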
